A study of Mus musculus with 4 samples.

Results

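The mitochondrially encoded genes are the 37 genes whose mouse symbol starts with mt-, taken by that rule from the 43346 gene identifiers in each count file. They comprise 13 messenger RNAs (mRNAs), 2 ribosomal RNAs (rRNAs) and 22 transfer RNAs (tRNAs), and all 37 were present in the files. Hearts were collected on postnatal day 0. The wild type hearts (WT, libraries WT1 and WT2) were of the ICR strain background. The double knockout hearts (DKO, libraries DKO1 and DKO2) lacked MRTFA and MRTFB, coactivators of serum response factor, and were of a mixed background. Genotype and strain background cannot be told apart in this design, and the labels do not state how the deletions were made or which cells carry them. The labels also do not say whether libraries of a group came from separate animals, so each p-value reflects library-to-library spread only, and that spread may be technical.

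The mitochondrial genome is a small circle inside the organelle, inherited from the mother. Each of its strands is transcribed as a long precursor, from which most mRNAs and rRNAs are freed by cutting out the tRNAs that lie between them. Its mRNAs encode core subunits of respiratory complexes I, III and IV and of the ATP synthase (complex V), which assemble with subunits made from nuclear genes. Heart muscle is rich in mitochondria and draws most of its ATP from this chain. Stretches of mitochondrial DNA have also been copied into the nuclear chromosomes during evolution, and reads from such a copy and from the organelle can look alike.

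Total counts ran from 16175259 to 29460641 per library. Levels are in CPM, counts per 1000000 reads scaled with TMM factors. Mrtfa, a targeted gene counted over all its exons, was at 9.06 and 11.1 CPM in WT and at 3.35 and 2.26 CPM in DKO, without overlap (edgeR adjusted p = 0.12, DESeq2 adjusted p = 1.45e-05). Mrtfb, the other target, overlapped between groups, at 46.9 and 56.8 CPM and then 46.0 and 49.6 CPM (edgeR adjusted p = 0.69). Its loss is thus not seen in these counts, and a count over all exons includes any that were not deleted. Across 7 cardiomyocyte markers the summed level was 38203 and 37607 CPM in WT and 37725 and 36800 CPM in DKO, and all 7 were detected. Of the markers of mitochondria-rich brown fat, Ucp1 had at most 1 count and Elovl3 at most 2 in any library. Cidea, the remaining marker, was at 19.6, 20.4, 21.7 and 7.59 CPM in WT1, WT2, DKO1 and DKO2. In bulk tissue, fewer cells of a type and less RNA per cell cannot be told apart.

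Several of the 37 genes share nearly their whole sequence with nuclear copies, and those sequences are shown because reads from both look alike. In the GENCODE M21 transcripts (GRCm38, the mm10 build), 7 annotated pseudogenes on chromosome 1, between positions 24611535 and 24616197 on the minus strand, match 7 mitochondrial mRNAs at 99% identity or more. In map order they are Gm29216, which matches the last 483 bases of mt-Co1, then Gm28661 (mt-Co2), Gm10925 (mt-Atp6), Gm28437 (mt-Co3), Gm28438 (mt-Nd3), Gm10222 (mt-Nd4l) and Gm28439, which matches the first 876 bases of mt-Nd4. The distances between their starts equal those on the mitochondrial genome to within 1 base, so the 7 lie as on a single copied stretch, which corresponds to mitochondrial positions 6390 to 11042, or 4653 bases. Within that stretch lie 6 whole mRNA genes, mt-Co2, mt-Atp8, mt-Atp6, mt-Co3, mt-Nd3 and mt-Nd4l, and 5 tRNA genes. No annotated copy was found for mt-Atp8 or for those tRNAs, whose place in the stretch follows from the spacing alone. Of the 7 copies, 5 had no mismatch over the aligned bases and the other 2, Gm28438 and Gm29216, had 1 each.

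The first pair shows how alike they are. These are the first 33 bases of mt-Nd3 (chrM:9459-9491, plus strand) and of Gm28438 (chr1:24613087-24613119, minus strand), 5′ to 3′, with the mismatch in capitals. It is T3C, given with the mitochondrial base first and counted from 1 at the 5′ end of mt-Nd3.
mt-Nd3: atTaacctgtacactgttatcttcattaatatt
Gm28438: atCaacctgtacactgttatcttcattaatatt
The other mismatch lies at the edge of the stretch shared by mt-Co1 (chrM:6390-6423, plus strand) and Gm29216 (chr1:24616155-24616188, minus strand). It is A1066T, counted from the 5′ end of mt-Co1, and is again in capitals.
mt-Co1: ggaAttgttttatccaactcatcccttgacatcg
Gm29216: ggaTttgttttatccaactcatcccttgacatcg
The whole of mt-Nd4l (chrM:9877-10173, plus strand) shows a gene without a mismatch. All bases in lower case are shared with Gm10222, and the capitals are the last 3 bases, beyond its annotated end. Those 3 bases also belong to the start of mt-Nd4, which Gm28439 matches without a mismatch, so they are copied on chromosome 1 too.
mt-Nd4l: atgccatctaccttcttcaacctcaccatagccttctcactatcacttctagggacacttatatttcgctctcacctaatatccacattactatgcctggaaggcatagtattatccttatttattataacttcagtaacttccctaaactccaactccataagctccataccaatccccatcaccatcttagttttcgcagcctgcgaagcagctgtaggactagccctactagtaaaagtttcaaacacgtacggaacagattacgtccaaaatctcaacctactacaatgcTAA
In mt-Nd4 (chrM:11003-11082, plus strand) the copy ends inside the gene. Lower case marks bases that Gm28439 (chr1:24611535-24611574, minus strand) also holds, and capitals mark bases beyond it.
mt-Nd4: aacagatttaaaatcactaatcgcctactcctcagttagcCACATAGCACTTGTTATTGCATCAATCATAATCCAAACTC
Gm28439: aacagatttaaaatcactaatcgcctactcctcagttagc

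To measure what these copies leave readable, every stretch of 50 bases in a mitochondrial gene was looked up in all annotated transcripts on both strands. The share of positions whose stretch occurred in no other gene was 0.0% in mt-Co2, 0.5% in mt-Atp6, 0.1% in mt-Co3, 2.0% in mt-Nd3 and 1.2% in mt-Nd4l. It was 37.8% in mt-Nd4 and 48.9% in mt-Co1, each copied over part of its length. In mt-Nd2 it was 91.8%, in mt-Nd5 92.4%, in mt-Rnr2 99%, and in mt-Nd1, mt-Nd6, mt-Cytb and mt-Rnr1 it was 100%. For mt-Atp8 it was also 100%, because the copied stretch holds no annotated transcript there. The unique positions in mt-Atp6, mt-Co3 and mt-Nd4l, 3, 1 and 3 in number, are those whose stretch runs past the annotated end of the copy. The lookup covered annotated transcripts only, so a share against the whole genome could be lower. Stretches of 36, 75 and 100 bases left the same number of mRNAs, 5, under 5%, and the share in mt-Co1 ran from 40.3% to 69.2%. The study's read length, not given in the sources used here, decides which of these applies.

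**Figure D1:**
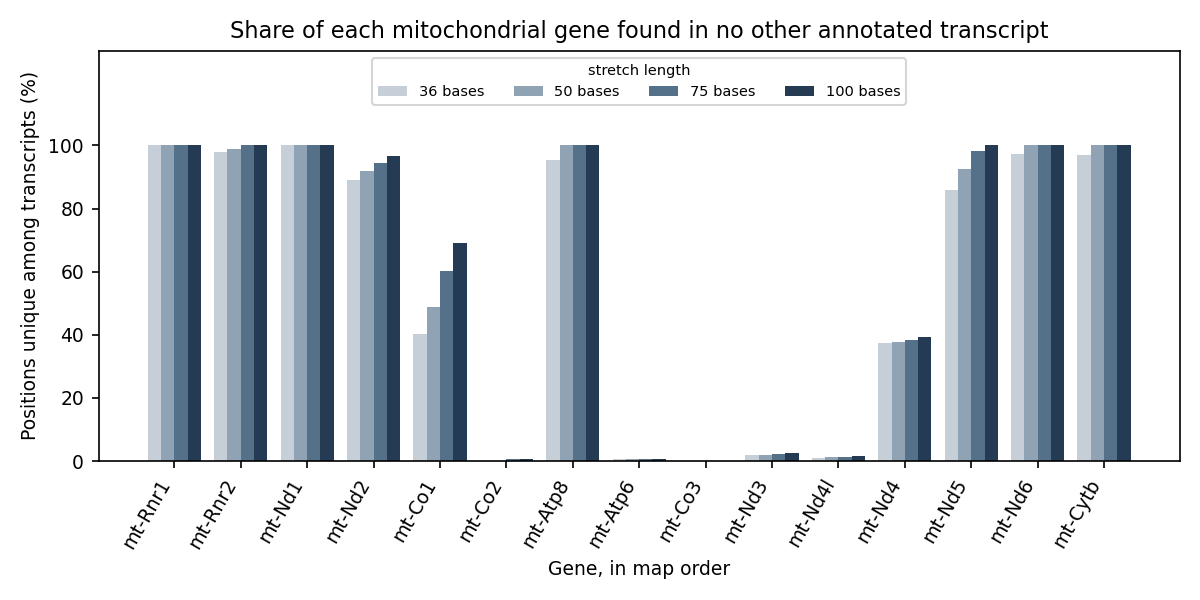
Bars give, for the 13 mRNA and 2 rRNA genes in map order, the percentage of positions whose stretch of 36, 50, 75 or 100 bases occurs in no other annotated transcript. mt-Co2, mt-Atp6, mt-Co3, mt-Nd3 and mt-Nd4l lie near 0, mt-Nd4 near 38% and mt-Co1 between 40.3% and 69.2%.

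The mRNAs with few counts were those wholly inside the copied stretch. The 6 mRNAs inside the copied stretch together held 15 and 31 counts in WT1 and WT2 and 19 and 10 in DKO1 and DKO2. mt-Co2, which encodes the subunit of cytochrome c oxidase that takes electrons from cytochrome c, had 6, 5, 8 and 1 counts in those libraries in that order. mt-Co3, a further core subunit of that enzyme, had 2, 3, 1 and 2 counts. Both were thus at or within a few counts of the lowest level a library of this depth can show, next to mt-Co1 of the same enzyme at 735153 to 1543453 counts.

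The ATP synthase subunit gene mt-Atp6 had 3, 22, 3 and 2 counts, and its overlapping neighbour mt-Atp8 had 2, 1, 0 and 2. The 22 counts of mt-Atp6 in WT2 were the highest of any gene inside the stretch. The complex I genes mt-Nd3 and mt-Nd4l had 1, 0, 6 and 2 counts and 1, 0, 1 and 1. None of these 6 passed the filter on low counts, and no fold change is given for them. A count of 3 in a library equals 0.106 to 0.184 CPM. The handling of reads with several equal matches, not given in the sources used here, was not tested as to its part in these low counts, and they cannot be read as levels of the mRNAs.

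**Figure D2:**
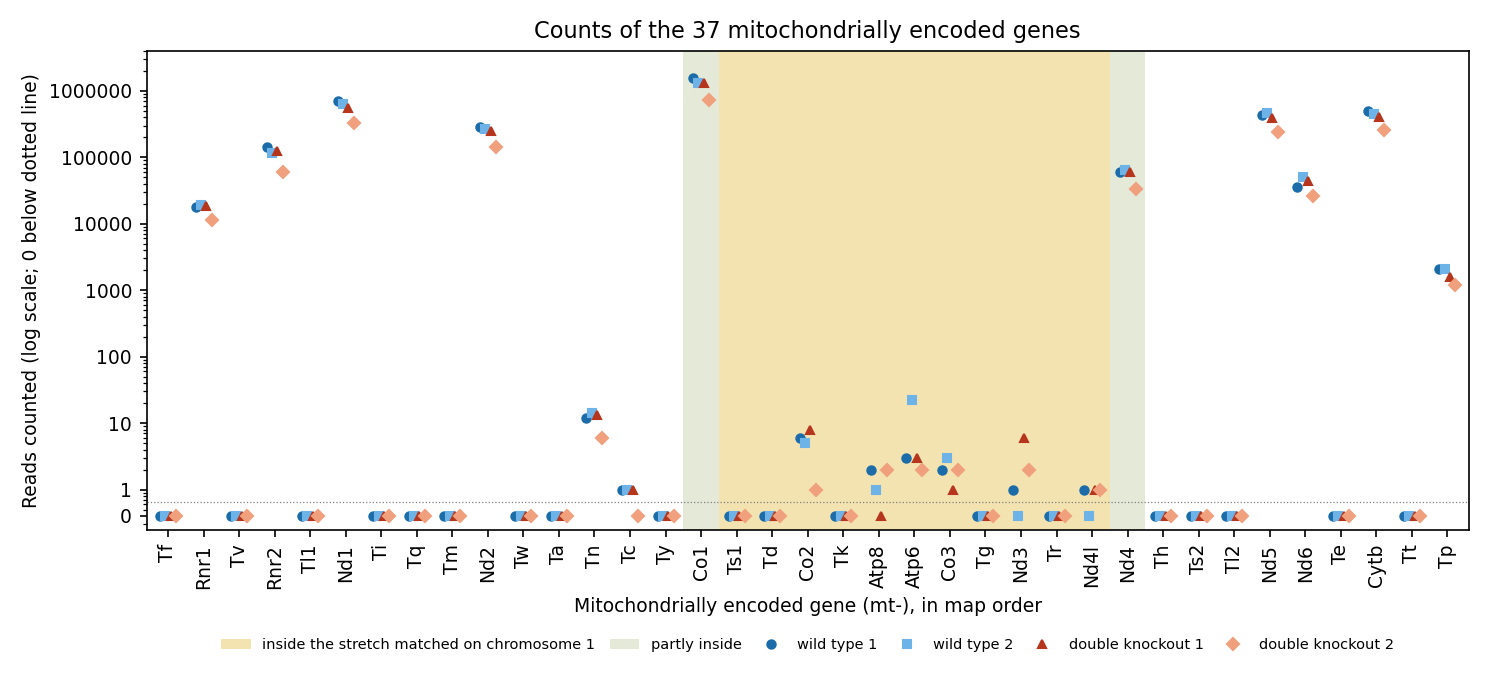
Points give the reads counted (log axis, with 0 drawn below the dotted line) for each of the 37 genes in map order in the 4 libraries. Shading marks genes inside or partly inside the stretch matched on chromosome 1, where the 6 whole mRNAs have 0 to 22 counts per library while mt-Co1 and mt-Nd4, partly inside, have 33439 to 1543453.

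Of the 37 members, 11 passed the filter and could be tested, 7 mRNAs, both rRNAs and the tRNAs mt-Tn and mt-Tp. mt-Co1 was the most counted gene of every library, and 5 of the 10 most counted genes in each library were mitochondrially encoded. Levels between genes are compared per kilobase of gene length, as CPM per kilobase averaged over the 4 libraries. mt-Co1, the catalytic subunit of cytochrome c oxidase, was at 32171, mt-Nd1 of complex I at 23569, mt-Cytb of complex III at 14336, mt-Nd2 at 9272, mt-Nd5 at 8503, mt-Nd6 at 3067 and mt-Nd4 at 1618. The order was the same in each library. By library, mt-Nd2 ran from 8406 to 10409 and mt-Nd5 from 7422 to 10133 CPM per kilobase, so these neighbours overlapped in range, and the other neighbours did not.

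Dividing by the number of unique positions in place of the whole length changed the order. mt-Nd4 then stood at 4442 CPM per kilobase of unique positions against 3386 for mt-Nd6, above it in every library, and mt-Co1 stood at 67996 against 24841 for mt-Nd1. These values rest on stretches of 50 bases, at which mt-Co1 has 731 unique positions. It has 608 at 36 bases and 1000 at 100 bases, so its value depends on the read length. mt-Nd6, a complex I subunit, is the only mRNA made from the opposite strand to the other 12. The strand setting of the counting was not given in the sources used here. Reads from mt-Nd6 and from antisense precursor RNA over it cannot be told apart. Its counts were 8.12% and 10.8% of those of mt-Nd5, the gene whose end it overlaps, in WT1 and WT2 and 11.4% and 10.7% in DKO1 and DKO2. WT1 was the low library and the other 3 lay close together.

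Of the rRNAs, mt-Rnr2, the large-subunit rRNA of the mitochondrial ribosome, averaged 2792 CPM per kilobase of length. By that measure it was above mt-Nd4 in every library and overlapped mt-Nd6 in range. Per kilobase of unique positions mt-Nd4 was instead above mt-Rnr2 in every library, at 4075 to 5185 against 2377 to 3284. mt-Rnr1, the small-subunit rRNA, averaged 724 CPM per kilobase, below the 7 tested mRNAs in every library. The label gives total RNA as the molecule, with any removal of rRNA or selection of polyadenylated RNA not given in the sources used here. mt-Rnr1 amounted to 12.8%, 16.3%, 15% and 19.5% of the mt-Rnr2 count in WT1, WT2, DKO1 and DKO2, so the groups overlapped in this ratio. Mitochondrial rRNAs made up 0.541%, 0.539%, 0.524% and 0.435% of all counts in the same order.

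Of the 22 tRNA genes, 19 had 0 counts in all 4 libraries, which allows up to 0.106 to 0.184 CPM by library. The 3 others, mt-Tn, mt-Tp and, named after its values were seen, mt-Tc, are all made from the light strand, the strand of 8 of the tRNA genes, and none of the 14 made from the heavy strand was counted. mt-Tp, the proline tRNA, had 2115 and 2066 counts in WT and 1564 and 1208 in DKO. mt-Tn, the asparagine tRNA, had 12 and 14 and then 13 and 6, and mt-Tc, the cysteine tRNA, had 1, 1, 1 and 0. Their sequences on the RNA strand, mt-Tn (chrM:5089-5159, minus strand) and mt-Tp (chrM:15356-15422, minus strand), show how short the whole genes are.
mt-Tn: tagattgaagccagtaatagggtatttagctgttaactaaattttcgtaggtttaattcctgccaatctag
mt-Tp: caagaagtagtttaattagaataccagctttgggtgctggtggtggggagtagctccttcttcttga
The tRNA genes measure 59 to 75 bases. mt-Tn and mt-Tc have 32 bases between them, where light-strand replication starts, and no annotated gene follows mt-Tp before the end of the sequence. On the circle that gene-free region ends at mt-Tf, which begins at the first base and had 0 counts in all libraries although it borders the region as mt-Tp does. The other 18 tRNA genes lie at most 5 bases from each neighbour. Whether reads spanning 2 genes were discarded was not tested.

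The design asks what the heart expresses without MRTFA and MRTFB. All 11 tested mitochondrially encoded genes had a negative fitted log2 fold change (DKO against WT), which 48.7% of all tested genes had, and none of the differences passed the threshold. edgeR's quasi-likelihood test with Benjamini-Hochberg adjustment over 16009 genes placed 0 of the 11 tested members under 0.05, against 0.0750% of all genes (12 genes, 0.0625% lower and 0.0125% higher in DKO). At an unadjusted p under 0.05 it placed 1 member, mt-Nd1, against 17.3% of all genes, and both DESeq2, which called 3.27% of the genes it tested, and limma-voom called 0 members. In 7 of the 11 both DKO libraries lay below both WT libraries, which 25.2% of all tested genes also did. The median log2 fold change was -0.24 over the 7 mRNAs and 0.01 over all tested genes. Without WT1 the median over the mRNAs was -0.32.

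In complex I, mt-Nd1 was at 24903 and 25760 CPM in WT and 19279 and 20280 CPM in DKO, without overlap. Its log2 fold change was -0.36 (SE 0.12) with an edgeR adjusted p of 0.235. It also took a smaller part of the mitochondrial mRNA counts in DKO, 18.2% and 18.8% against 19.9% and 19.7%. mt-Nd2 was at 10166 and 10805 CPM and then 8803 and 8725 CPM, and mt-Nd5 at 15243 and 18482 CPM and then 13539 and 14773 CPM. Neither overlapped between groups, and the mt-Nd5 values spread more within WT than those of mt-Nd2. Their log2 fold changes were -0.26 (SE 0.12) and -0.25 (SE 0.15), and that of mt-Nd5 was -0.39 without WT1 and -0.12 without WT2. mt-Nd4 was at 2130 and 2603 CPM and then 2141 and 2046 CPM, with DKO1 just above WT1. mt-Nd6 was at 1238 and 1998 CPM and then 1548 and 1582 CPM, so that both DKO values lay between the WT ones. The fitted log2 fold changes of this pair were -0.18 (SE 0.14) and -0.05 (SE 0.23), and that of mt-Nd4 was -0.32 without WT1 and -0.04 without WT2.

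In the other complexes, mt-Co1 was at 54394 and 53122 CPM in WT and 46330 and 44974 CPM in DKO. mt-Cytb, the central subunit of the cytochrome bc1 complex, was at 17258 and 18184 CPM and then 14383 and 15777 CPM. Both genes lay apart between groups, with log2 fold changes of -0.24 (SE 0.12) and -0.23 (SE 0.13) and edgeR adjusted p of 0.382 and 0.406. In relative terms this put mt-Co1 at 0.849 and mt-Cytb at 0.851 of WT. mt-Co1 held 43.4% and 40.6% of the mitochondrial mRNA counts in WT and 43.7% and 41.6% in DKO, so its share overlapped between the groups.

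Among the RNAs of the ribosome and the tRNAs, mt-Rnr2 was at 4982 and 4691 CPM in WT and 4389 and 3606 CPM in DKO (log2 fold change -0.27, SE 0.14). That difference was -0.43 without DKO1 and -0.14 without DKO2. mt-Rnr1 was at 639 and 765 CPM and then 659 and 701 CPM, both DKO values between those of WT (-0.04, SE 0.14). mt-Tn, with at most 14 counts in a library, had -0.22 (SE 0.44), between -0.42 without WT1 and -0.03 without WT2. mt-Tp was at 74.5 and 83.0 CPM and then 55.2 and 73.9 CPM, with DKO2 just below WT1 (-0.29, SE 0.16, edgeR adjusted p = 0.414). Its log2 fold change was -0.52 without DKO2 and -0.09 without DKO1, fits that leave 1 library in the DKO group. With all 4 libraries mt-Tp passed the threshold in no alternative setting. The fold change of mt-Nd6 turned to 0.32 and that of mt-Rnr1 to 0.08 without WT2, and both were 0.02 without composition factors.

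**Figure D3:**
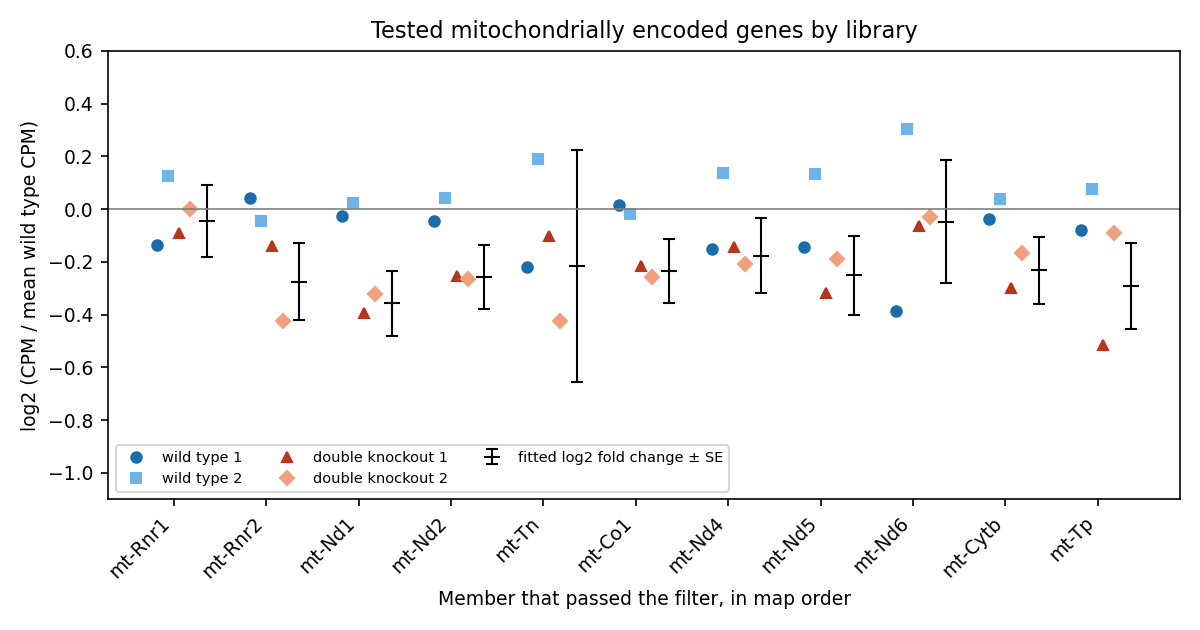
Points give, for the 11 members that passed the filter, the log2 ratio of each library's CPM to the mean WT CPM, and black bars give the fitted log2 fold change ± SE (n = 2 libraries per group). DKO points lie below both WT points in 7 genes, while mt-Nd6, mt-Rnr1, mt-Nd4 and mt-Tn overlap.

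Reads counted to the 37 genes took 12.6% and 13.5% of the counts in WT and 11.5% and 11.4% in DKO. The means were 13.05% ± 0.61 and 11.45% ± 0.11 (SD, n = 2 per group), a difference of -1.60 percentage points. The two-sided exact permutation test over libraries gave p = 0.333, the smallest value that 2 libraries against 2 allow. With a library left out the difference ran from -2.02 to -1.17 points. The 6 mRNAs wholly inside the copied stretch added only 10 to 31 counts per library to this share, and 19 of the 22 tRNA genes added 0. It is thus a share of the counts and cannot be read as the mitochondrial share of the heart's RNA. Single cardiomyocyte markers lay on both sides of WT. Myh6, the adult-type myosin heavy chain, was at 16361 and 17163 CPM in WT and 14825 and 12968 CPM in DKO, 0.829 of WT, and Actn2 and Ryr2 were at 0.881 and 0.896 of WT, also without overlap. Pln lay above WT without overlap, at 5172 and 5251 CPM and then 5980 and 5517 CPM. Myh7, the fetal-type myosin heavy chain, overlapped, at 3557 and 1930 CPM and then 3298 and 5775 CPM. Tnnt2 and Tnni3, at 1.06 and 0.914 of WT, overlapped as well. Of all tested genes, 25.2% lay below WT without overlap and 25.8% above. The part of cell makeup in the mitochondrial share was not tested.

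Among the tested mitochondrial genes and nuclear copies, the largest difference was in reads counted to Gm28438, the chromosome 1 copy of mt-Nd3. They came to 825 and 860 counts in the WT libraries and 4 and 5 in the DKO libraries. The count assigned to it fell from 31.8 ± 3.88 to 0.224 ± 0.117 CPM (mean ± SD, n = 2 per group), a log2 fold change of -7.25 (SE 0.30) with an edgeR adjusted p of 0.00624. It passed the threshold in each of the 15 alternative settings that tested it, with an adjusted p between 7.78e-119 and 0.0369. Over the same libraries mt-Nd3 had 1, 0, 6 and 2 counts. The copy thus held 99.9% and 100% of the reads of the pair in WT (exact binomial 95% intervals 99.3% to 100% and 99.6% to 100%). In DKO it held 4 of 10 and 5 of 7 reads (12.2% to 73.8% and 29% to 96.3%). The intervals cover counting error only.

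Over the 345 aligned bases the pair differs by the single substitution T3C shown above, so which of the 2 loci these reads came from is uncertain. The substitution lies at mitochondrial position 9461, and which base the mitochondrial DNA of the WT and DKO hearts carries there was not examined. A difference in mitochondrial haplotype between the groups, in the amount of RNA from either locus, or in the assignment of reads between them cannot be told apart in these counts. Summed with its copy, mt-Nd3 had 826, 860, 10 and 7 counts. That sum passed the threshold in a fit in which the counts of 11 nuclear copies were added to their mitochondrial genes. Its log2 fold change was -6.36 (SE 0.23) with an edgeR adjusted p of 0.00269. Gm28438 gave 825 and 860 of the WT counts, so the sum repeats its result and is no separate result for mt-Nd3. Of the 6 other chromosome 1 copies, Gm28661, Gm10925, Gm28437, Gm10222 and Gm28439 had 0 to 11 counts in every library and were not tested, Gm10925 reaching 11 in WT2. The background strain of the groups differs along with the genotype, and the 2 cannot be told apart for Gm28438.

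Gm29216, the copy of the end of mt-Co1, separated the libraries in another way. It had 471 and 86 counts in WT1 and WT2 and 568 and 336 in DKO1 and DKO2. Of the counts of mt-Co1 and this copy together it held 0.0305%, 0.00651%, 0.0432% and 0.0457%, so WT2 was the low library. The fitted difference, 1.01 on the log2 scale with SE 0.69, did not pass (edgeR adjusted p = 0.514), and it was 0.28 without WT2 and 2.55 without WT1. WT2 was also the library with 22 counts of mt-Atp6. On chromosome 2, Gm13340, a copy of mt-Co1 at 97.6% identity, had 55, 50, 50 and 27 counts, and Gm13341, a copy of mt-Co2 at 95.9% identity, had 24, 18, 25 and 12, more than mt-Co2 itself in each library. Neither showed a difference between the groups past the threshold (edgeR adjusted p of 0.732 and 0.951). The remaining copies at 95% identity or more, Gm13339 and Gm4076, had at most 1 count in a library.

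**Figure D4:**
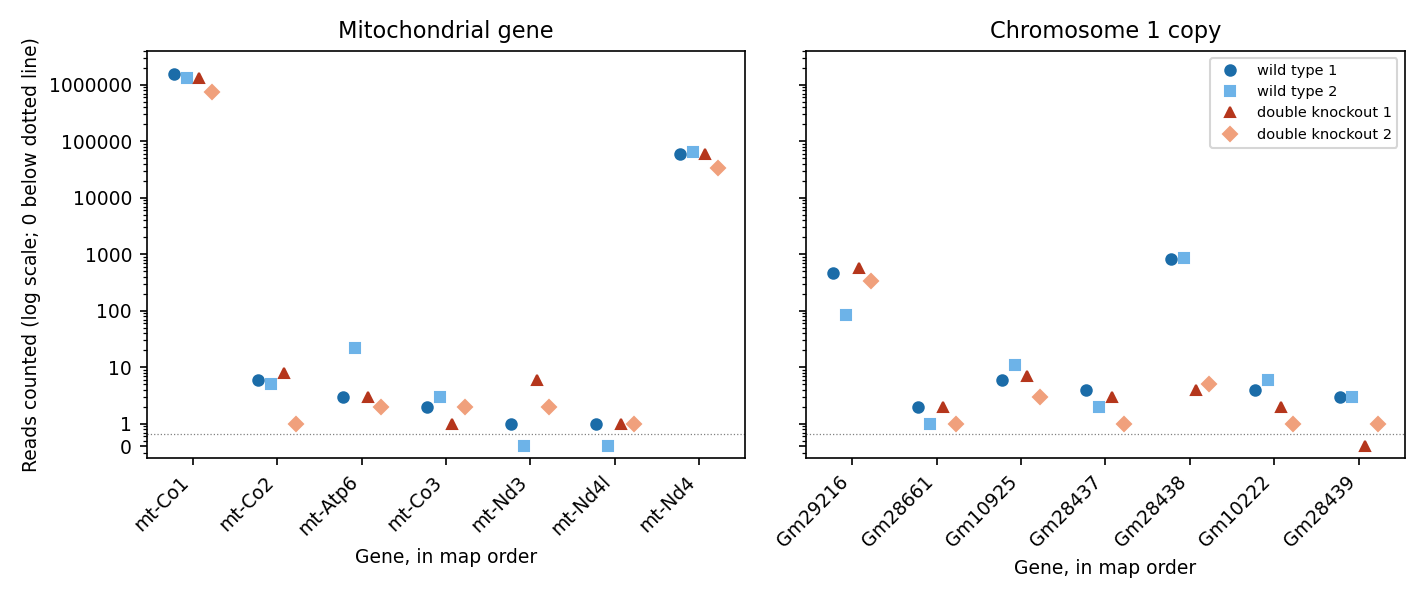
Reads counted (log axis, with 0 drawn below the dotted line) for the 7 mitochondrial genes matched on chromosome 1 (left) and for their copies (right), in map order, by library. Gm28438 has 825 and 860 counts in WT against 4 and 5 in DKO, and Gm29216 is lowest in WT2.

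The nuclear genes that read out the mitochondrial genome did not pass the threshold either. Of 95 tested genes for its replication, transcription, RNA processing, modification and translation, edgeR called 0, with 27 at an unadjusted p under 0.05 (25 lower and 2 higher; 17.3% of all genes), and DESeq2 called 7 lower and 1 higher (3.27% of all genes). Both DKO libraries lay below both WT libraries in 47 of the 95 (25.2% of all genes) and above them in 10 (25.8% of all genes). The median log2 fold change was -0.15. edgeR called 23 of them (24.2%) without DKO1 and 15 (15.8%) without DKO2, where it called 17.1% and 8.24% of all genes, and 0 without WT1 or WT2.

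Polrmt, the RNA polymerase that transcribes the mitochondrial genome, was at 24.5 ± 2.27 CPM in WT and 19.9 ± 0.181 CPM in DKO (mean ± SD, n = 2 per group). Tfam, which packages mitochondrial DNA and starts its transcription, was at 71.6 and 64.3 CPM and then 53.8 and 54.0 CPM. For neither did the groups overlap, as for the 25.2% of all tested genes that lay below WT in this way. The log2 fold changes of Polrmt and Tfam were -0.30 (SE 0.14) and -0.33 (SE 0.11), with edgeR adjusted p of 0.324 and 0.219. Lrpprc, which protects mitochondrial mRNAs from decay, lay lower still, at 324 and 256 CPM in WT and 166 and 182 CPM in DKO (-0.74, SE 0.15, edgeR adjusted p = 0.146). The genes for RNA processing, stability and decay to which it belongs had a median of -0.29, with 16 of 21 negative. Those for transcription had -0.09 with 6 of 12 negative, and those for DNA replication and copy number -0.03 with 8 of 14.

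Among the genes chosen by size of difference, Taco1, a translational activator of mt-Co1, was at 43.5 ± 3.96 CPM in WT and 25.3 ± 6.62 CPM in DKO (-0.78, SE 0.20). Tsfm, a mitochondrial translation elongation factor, was at 18.4 ± 2.25 and 10.5 ± 0.779 CPM, and Aars2, the mitochondrial alanyl-tRNA synthetase, at 28.4 ± 0.349 and 16.1 ± 3.33 CPM. Mrm3, which methylates the large mitochondrial rRNA mt-Rnr2, was at 17.8 ± 1.14 and 9.61 ± 0.170 CPM, and Dna2, a nuclease-helicase of nuclear and mitochondrial DNA, at 20.3 ± 6.80 and 9.84 ± 3.79 CPM, its log2 fold change of -1.03 (SE 0.35) being -0.65 without WT1. Cdk5rap1, which modifies mitochondrial tRNAs, was the member of this group that lay higher, at 14.7 ± 1.45 and 24.6 ± 0.500 CPM (0.74, SE 0.14). The edgeR adjusted p of these 6 ran from 0.126 to 0.240, and DESeq2 called all of them but Dna2.

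For the nuclear-encoded subunits of complexes I to V, and 6 other mitochondrial proteins, 81 of 84 fitted log2 fold changes were negative (48.7% of all genes). In complex I, 34 of 36 nuclear subunits had both DKO libraries below both WT libraries (25.2% of all genes) and a median log2 fold change of -0.42, beside -0.25 over the 5 tested mitochondrial subunits. In complex III the nuclear median was -0.47 over 9 genes beside -0.23 for mt-Cytb. In complex IV it was -0.23 over 13 genes beside -0.24 for mt-Co1. In complex V it was -0.34 over 16 genes, and neither mt-Atp6 nor mt-Atp8 could be tested. Complex II, which has no mitochondrially encoded subunit, had a median of -0.46 over 4 genes. Whether the 2 genomes differ in their change was not tested.

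Of these 84 genes, edgeR called 0, with 51 at an unadjusted p under 0.05, all lower (17.3% of all genes in either direction), and DESeq2 called 13, all lower (3.27% of all genes in either direction). edgeR called 31 (36.9%) without DKO1 and 28 (33.3%) without DKO2, against the same 17.1% and 8.24% of all genes, and 0 without WT1 or WT2. The complex I subunit gene Ndufb10 was at 172 ± 4.35 CPM in WT and 102 ± 19.6 CPM in DKO, and Ndufs6 of the same complex at 31.1 ± 1.24 and 20.7 ± 1.04 CPM. Cox7c, a cytochrome c oxidase subunit, was at 21.7 ± 0.153 and 10.6 ± 1.72 CPM, the largest difference among the subunits named (-1.02, SE 0.17). Cox7a1, the muscle form of a cytochrome c oxidase subunit, was at 19.3 ± 0.764 and 10.8 ± 0.814 CPM, and Atp5g1, of the membrane ring of ATP synthase, at 65.8 ± 8.43 and 42.2 ± 4.93 CPM. Hspd1, the chaperonin of the mitochondrial matrix, was at 222 ± 33.6 and 148 ± 10.7 CPM. The 6 were chosen among genes whose groups did not overlap, and DESeq2 called all of them but Ndufs6.

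**Figure D5:**
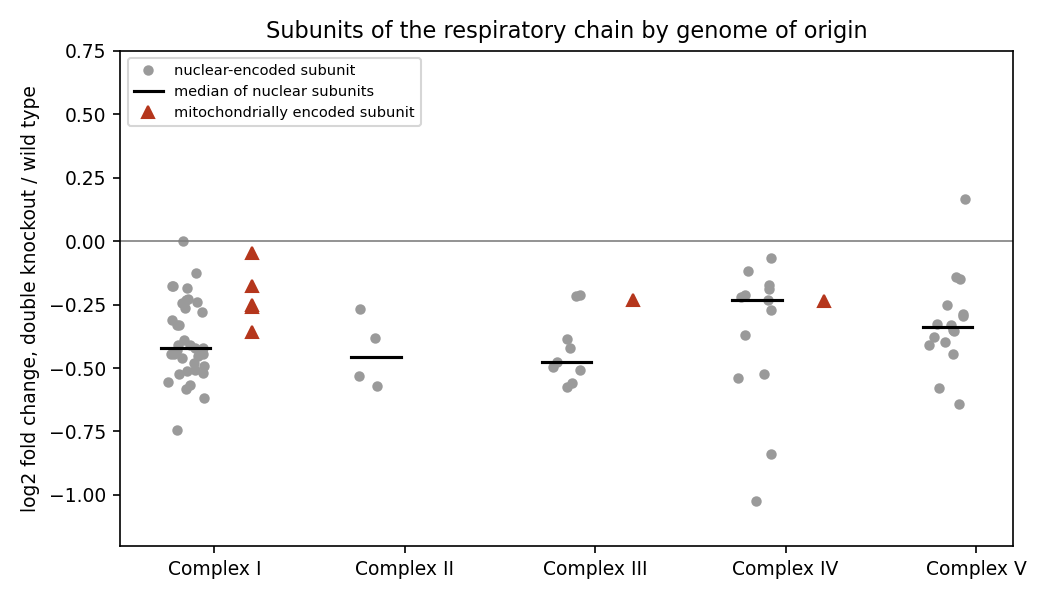
Grey points give the log2 fold change (DKO against WT, fitted) of each nuclear-encoded subunit by respiratory complex, black bars their median, and red triangles the tested mitochondrially encoded subunits. Medians of the nuclear subunits run from -0.47 in complex III to -0.23 in complex IV, and the 7 mitochondrial genes lie between -0.36 and -0.05.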

How the data were processed

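RNA from hearts was sequenced in 4 libraries, 2 per group. The deposited values are raw read counts per gene, made by the authors with HTSeq on mm10, per the submitters' processing notes, which also name DESeq 1.10.1. Aligner, strand setting and treatment of reads with several matches: not given in the sources used here. All files list 43346 identifiers and 0 rows naming no gene, and GENCODE M21 named 42462 of them. The test was edgeR 4.0.16 (R 4.3.3) with filterByExpr, TMM factors, quasi-likelihood with robust estimation and no covariate, at an adjusted p under 0.05 over all genes. The SE is the fold change divided by the square root of its F statistic. DESeq2 1.42.0 and limma 3.58.1 (voom) were alternatives. The function was tested on simulated data. Nuclear copies were found with blastn 2.17.0 (at least 95% identity over 100 bases) among annotated transcripts, in place of the genome that the design foresaw. They are 11 counted genes.

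Named genes are the mRNAs and rRNAs, tRNAs and copies with at least 10 counts in a library, and, of each pathway list, up to 6 genes with the largest difference among those whose groups did not overlap and whose mean was at least 5 CPM, plus Tfam, Polrmt and Lrpprc. mt-Tc and the chromosome 1 copies with fewer counts were named after their values were seen. Gene lists and members were chosen with earlier results of these data known.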

Additional observations from a re-analysis of the deposited data

How the results depend on the processing

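Of 16 alternatives to the test, those on all 4 libraries placed no mitochondrially encoded gene past the threshold on its own counts. In the fit that added the nuclear copies, mt-Nd3 summed with Gm28438 passed, which repeats the result for Gm28438. The log2 fold change of mt-Tp was -0.52 without DKO2 and -0.09 without DKO1. The median log2 fold change of the mitochondrial mRNAs was -0.16 without composition factors and -0.32 to -0.21 with a library left out. The share of counts differed by -2.02 to -1.17 points with a library left out. Without composition factors mt-Rnr1 and mt-Nd6 reversed, each to 0.02. With a library left out mt-Rnr1 ran from -0.17 to 0.08 and mt-Nd6 from -0.36 to 0.32, both reversed without WT2. Gm13341 ran from -0.10 to 0.17 and reversed without WT2 (-0.07) or DKO1 (-0.10). The cause was not tested. A group left with 1 library is assumed to vary like the other.

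Over all genes the number called was 12, and it was 1514 without a filter, 513 with DESeq2 (271 higher and 242 lower in DKO, against 2 higher and 10 lower), and 2 to 2795 with a library left out (2 and 3 without WT1 or WT2, 2795 and 1364 without DKO1 or DKO2). For the machinery of mitochondrial gene expression it was 19 without a filter, 8 with DESeq2 and 0 to 23 with a library left out. For the nuclear partners it was 32, 13 and 0 to 31. Without a filter 24928 genes were tested, and 785 of the 1514 called were lower in DKO. In that setting 19 of 95 machinery genes were called, 18 of them lower. Of the nuclear partners 32 of 84 were called, all lower. At 99% identity or more 7 nuclear copies remained of 11. Replicate numbers carry no stated pairing, and deviations of same-numbered libraries correlated at r = -0.105 across genes. A replicate block called 2 genes overall and a crossed replicate block, added after seeing the data, called 3; neither called a mitochondrially encoded gene, and Gm28438 passed in both (adjusted p = 0.00372 and 0.0186, edgeR).

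With 2 libraries per group, small differences in genes of high count are limited by the spread between libraries and not by depth.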
